A study of Mus musculus with 8 samples.

Results

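The genes described here are the 10 listed genes of the amino acid stress response that runs through the transcription factor ATF4, Atf4, Atf3, Ddit3, Trib3, Chac1, Ddit4, Sesn2, Asns, Psat1 and Phgdh, of 18193 genes measured. They were chosen by name, with earlier results of these data known, so the counts below describe the list and do not test it. Every probe set (a group of short probes for one transcript) annotated to one of these symbols and to no other was taken, which gave 20 probe sets. The main probe set of a gene was the one with the highest mean log2 signal over the 8 arrays. Another 2 probe sets list a listed gene together with a further symbol and were not used.

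The arrays, Affymetrix Mouse Genome 430 2.0, measured total RNA from optic nerves kept in organotypic culture, in 4 lithium samples and 4 control samples. All nerves came from C57BL/6 mice aged P35-45 and were cultured for 3 days, the lithium group with 20 mM Lithium Chloride in the medium and the control group with saline, at 6 nerves per sample per the labels. The study used the optic nerve as a white matter tract and asked how lithium, a mood stabiliser given in bipolar disorder, changes gene expression there. No uncultured nerves are included, so both groups share the effects of dissection and culture. The labels leave unstated whether the samples of each group were separate cultures or animals. The study's methods count fewer nerves for the arrays than 6 separate nerves in every sample would need. The p-values below therefore rest on the variation among these 8 samples alone, and part or all of it may be technical.

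When amino acids run short or unfolded protein builds up in the endoplasmic reticulum, kinases phosphorylate the initiation factor eIF2, general translation slows, and the mRNA of ATF4 is translated more. ATF4 is a basic leucine zipper (bZIP) protein that pairs with C/EBP and other bZIP proteins on DNA and switches on genes for amino acid synthesis, amino acid uptake, tRNA charging and the handling of stress. Because ATF4 is controlled largely through its translation, its mRNA is only part of its activity, and the arrays measure mRNA alone.

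The DNA element that ATF4 and C/EBP proteins bind together, the C/EBP-ATF response element, has the core TGATGNAA, where N is any base. This core was searched on both strands of a 300-base window around each RefSeq transcription start of the GRCm38.p6 assembly, made of 250 bases before the start and 50 after it. All 10 genes had an entry, with 11 windows. The core was present in 1304 of 32851 windows, 3.97%, and in 4 of the 11 windows of the ATF4 response genes, those of Atf3, Trib3, Chac1 and Asns. A match is a string of letters and not a measured binding site. The cAMP response element TGACGTCA, searched likewise, was present in 588 windows, 1.79%, and in 0 of the 11, so no match to one motif overlapped a match to the other. The 4 matches are shown in 30-base windows to let the cores be compared, each read 5′ to 3′ on the strand that carries the motif, with the core in capitals.
Atf3: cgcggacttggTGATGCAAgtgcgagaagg
Trib3: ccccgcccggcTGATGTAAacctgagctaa
Chac1: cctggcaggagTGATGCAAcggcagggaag
Asns: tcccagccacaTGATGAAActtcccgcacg
Atf3 and Chac1 carried the identical core, and Trib3 and Asns differed from it only at the base written N. The match lay 110 bases before the start in Atf3, 193 in Chac1 and 23 in Asns. In Trib3 it lay 14 bases after the start. Asns carried it on the strand of the gene, and the other 3 genes on the opposite strand. The 250 bases before the start are given for the 3 genes with an upstream match, on the strand of the gene, so that the capitals show the core or its reverse complement in place.
Atf3, chr1:191183334-191183583, minus strand: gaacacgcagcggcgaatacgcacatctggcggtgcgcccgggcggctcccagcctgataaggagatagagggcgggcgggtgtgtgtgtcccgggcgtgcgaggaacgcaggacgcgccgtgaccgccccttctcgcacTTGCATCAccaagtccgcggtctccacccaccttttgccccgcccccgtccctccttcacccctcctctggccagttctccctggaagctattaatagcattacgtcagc
Chac1, chr2:119350992-119351241, plus strand: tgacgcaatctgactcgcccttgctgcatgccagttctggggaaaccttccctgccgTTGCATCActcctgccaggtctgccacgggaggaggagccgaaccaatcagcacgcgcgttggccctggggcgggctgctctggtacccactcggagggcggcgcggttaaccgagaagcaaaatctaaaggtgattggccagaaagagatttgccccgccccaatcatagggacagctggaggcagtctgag
Asns, chr6:7693210-7693459, minus strand: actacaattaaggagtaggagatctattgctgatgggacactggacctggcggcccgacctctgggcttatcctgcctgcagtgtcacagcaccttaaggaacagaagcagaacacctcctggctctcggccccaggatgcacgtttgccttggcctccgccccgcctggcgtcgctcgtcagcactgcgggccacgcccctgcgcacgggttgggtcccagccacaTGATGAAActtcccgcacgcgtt

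Values below are MAS5 signals, a linear intensity without a unit that was scaled so that each array has the same trimmed mean. Fold changes were fitted on log2 signals with limma, lithium minus control, over 45037 probe sets, and a gene was called at a Benjamini-Hochberg adjusted p under 0.05. By this rule 214 of 18193 genes (1.18%) rose in lithium and 373 (2.05%) fell. Of the ATF4 response genes, 5 of 10 rose (Atf3, Trib3, Chac1, Sesn2 and Asns) and 0 fell, with 8 of 10 at an unadjusted p under 0.05, all of them higher in lithium. Over all genes, 1707 (9.38%) were higher and 2296 (12.6%) lower in lithium at an unadjusted p under 0.05. With each array centred on its median instead, 152 genes rose and 429 fell over the array, and of the 10 genes Trib3 and Chac1 rose, while Atf3, Sesn2 and Asns had adjusted p-values of 0.0625, 0.0582 and 0.0774.

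Lithium and control samples of the same replicate number were taken as pairs, and a fit with this number as a block was set beside the first. The pairing came from a check of the samples' deviations, which did not single out equal numbers. Lithium sample 1 with control sample 2 correlated at 0.1315, and lithium sample 4 with control sample 3 at 0.131. The same-numbered samples 3 correlated at 0.1297. With the block, 9 of 18193 genes rose (0.0495%), among them 1 of the 10, Trib3. With a term for samples 1 and 2 against 3 and 4 instead, 545 genes rose (3%), among them the same 5 of the 10 as in the first fit. The 4 lithium signals lay above all 4 control signals for 7 of the 10 genes, against 1177 genes overall (6.47%), and below them for 0 of 10, against 1623 overall (8.92%). All 10 means of log2 signal were higher in lithium, against 47.3% of all genes. The median log2 fold change of the 10 genes was 0.70, and that of all genes was -0.0028.

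**Figure D1:**
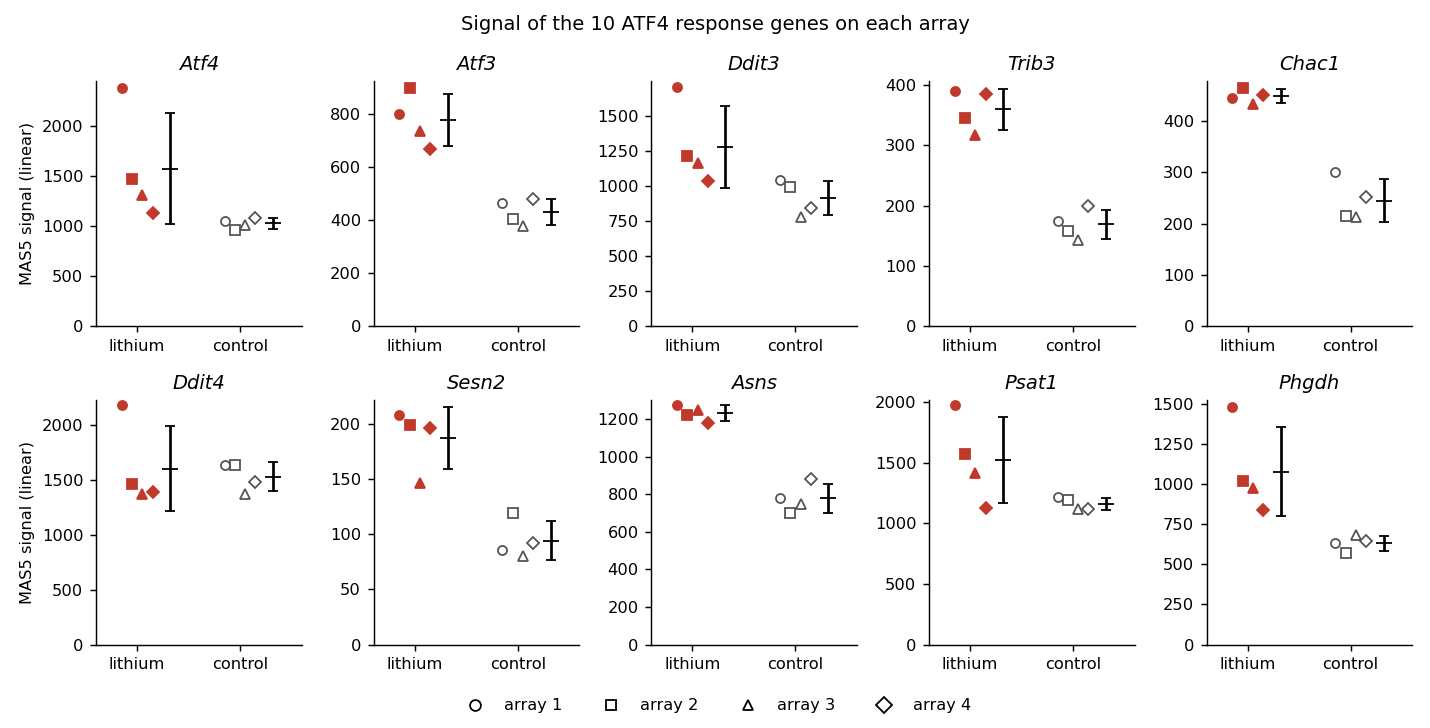
MAS5 signal (linear, y axes from 0) of the main probe set of each of the 10 genes, with lithium samples as filled red symbols, control samples as open grey symbols, a symbol shape per replicate number, and bars for the mean ± SD of 4 samples. The groups are apart for 7 genes and overlap for Ddit3, Ddit4 and Psat1, and lithium sample 1 stands above the other lithium samples for Atf4, Ddit3, Ddit4, Psat1 and Phgdh.

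Of the 3 transcription factors, Atf3 rose, and Atf4 and Ddit3 had higher means without passing the test. Atf4, the factor the response is named for, read 2378, 1472, 1307 and 1130 in lithium samples 1 to 4, against 1054, 957.8, 1013 and 1075 in control samples 1 to 4. All 4 lithium signals were above the controls, but lithium sample 4 was close to control sample 4 and lithium sample 1 was far above the rest. The mean was 1572 ± 555 in lithium and 1025 ± 51.6 in control (SD, n = 4 each), a log2 fold change of 0.56 ± 0.22 (SE) with a 95% interval of 0.03 to 1.09 and an adjusted p of 0.254 (limma). Its log2 difference was 0.90 within samples 1 and 2 and 0.22 within samples 3 and 4, and the log2 fold change was 0.34 without lithium sample 1. A further Atf4 probe set of lower signal had a log2 fold change of 0.22 with an adjusted p of 0.576 and overlapping groups. On the remaining Atf4 probe set, which averaged 3.55 ± 2.35 in lithium and 3.74 ± 0.43 in control, 2 lithium signals and 1 control signal were no higher than the array's spots for bacterial poly-A transcripts. When the 3 probe sets were averaged before the fit, the log2 fold change of Atf4 was 0.14 with an adjusted p of 0.627.

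Atf3, a stress-induced bZIP factor of the ATF/CREB family and a target of ATF4, read 801, 898, 737 and 668 in lithium samples 1 to 4, against 464, 403, 377 and 479 in control samples 1 to 4. The lowest lithium sample was above the highest control sample by more than the whole control range. Its log2 fold change was 0.85 ± 0.12 (SE), 1.80-fold, with an adjusted p of 0.0266 (limma), and 0.0868 with the replicate block. The call held without lithium sample 4 (adjusted p = 0.0410) and was lost without any other single sample (0.0513 to 0.0703).

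Ddit3, which encodes CHOP, a C/EBP family factor induced by ATF4, read 1701, 1211, 1159 and 1034 in lithium samples 1 to 4, against 1038, 992, 779 and 843 in control samples 1 to 4. Lithium sample 4 lay just under control sample 1, so the groups overlapped. A log2 fold change of 0.47 ± 0.18 (SE) had an adjusted p of 0.227 (limma). A weaker Ddit3 probe set averaged 53.2 ± 8.14 in lithium and 30.1 ± 8.23 in control (SD, n = 4 each), with a log2 fold change of 0.84 and an adjusted p of 0.0904. When the probe sets of each gene were averaged before the fit, Ddit3 passed the test, with a log2 fold change of 0.66 and an adjusted p of 0.0352.

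Of the 4 genes whose products feed back on the response or act downstream of it, Trib3, Chac1 and Sesn2 rose and Ddit4 did not differ beyond its spread. Trib3 encodes a pseudokinase that binds ATF4 and dampens its activity. It read 390.2, 345, 318 and 386 in lithium samples 1 to 4, against 174, 159, 143 and 199 in control samples 1 to 4. Every lithium signal exceeded every control signal by a wide margin, and samples 1 and 4 were the highest in both groups. Its log2 fold change of 1.10 ± 0.12 (SE), 2.14-fold, had an adjusted p of 0.0162 (limma) and 0.0477 with the replicate block. Trib3 kept its call without each of the 8 samples in turn, with adjusted p-values of 0.0362 to 0.0495. Its other probe set gave 1.19 on the log2 scale, also with an adjusted p of 0.0162. Trib3 was the 1 gene of the 10 that also met a 2-fold change and a signal of 200 in the higher group, limits that 16 of 18193 genes (0.0879%) met in the direction of lithium.

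Chac1 encodes a gamma-glutamylcyclotransferase that breaks down glutathione. Its signal was 445, 465, 432 and 451 in lithium samples 1 to 4, against 300.3, 214, 212 and 252 in control samples 1 to 4. The lithium samples were close to one another, with an SD of 13.5 around 448, while the control samples spread by 41.4 around 245. The log2 fold change was 0.89 ± 0.12 (SE), 1.85-fold, with an adjusted p of 0.0235 (limma), and 0.0747 with the replicate block. The call held without control sample 1 (adjusted p = 0.0295), which was the highest control, and was lost without any other single sample (0.0514 to 0.0645).

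Sesn2 encodes a leucine sensor that restrains the growth-promoting kinase complex mTORC1 when leucine is low. It read 208, 199, 146 and 196 in lithium samples 1 to 4, against 85.9, 119, 80.0 and 92.0 in control samples 1 to 4. Lithium sample 3 was lower than the other 3 and still above control sample 2, the highest control. The log2 fold change of 0.99 ± 0.16 (SE), 1.99-fold, had an adjusted p of 0.0373 (limma), and 0.0663 with the replicate block. The call held without lithium sample 3 (adjusted p = 0.0445) or control sample 2 (0.0415) and was lost without any of the other 6 (0.0750 to 0.0991). A further Sesn2 probe set gave 0.83 on the log2 scale with an adjusted p of 0.0385, and 0.0842 with the block.

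Ddit4, also called REDD1, encodes another inhibitor of mTORC1. It read 2182, 1466, 1367 and 1388 in lithium samples 1 to 4, against 1632, 1636, 1368 and 1476 in control samples 1 to 4. Lithium sample 1 was the highest of the 8, and the other 3 lithium samples lay within or just under the control range. The log2 fold change was 0.04 ± 0.17 (SE) with a 95% interval of -0.35 to 0.43 and an adjusted p of 0.951 (limma), and it was -0.12 without lithium sample 1.

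Among the 3 enzymes of amino acid synthesis, Asns rose, Phgdh was higher in all 4 lithium samples without passing the test on its main probe set, and Psat1 overlapped. Asns, asparagine synthetase, makes asparagine from aspartate and glutamine and is a classical target of ATF4. Its signal was 1276, 1225, 1250 and 1178 in lithium samples 1 to 4, against 778, 702, 748 and 883 in control samples 1 to 4. The lithium samples spread less than the controls and the gap between the groups was larger than either range. Its log2 fold change was 0.67 ± 0.08 (SE), 1.59-fold, with an adjusted p of 0.0194 (limma), and 0.0755 with the replicate block. The call held in 5 of 8 fits that each left out 1 sample and was lost without lithium sample 1 (adjusted p = 0.0503), control sample 1 (0.0566) or control sample 3 (0.0591). A further Asns probe set gave 0.69 on the log2 scale with an adjusted p of 0.0324, and 0.0861 with the block.

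Phgdh, the enzyme of the first step of serine synthesis from a glycolytic intermediate, read 1481, 1017, 974 and 838 in lithium samples 1 to 4, against 631, 569, 682 and 647 in control samples 1 to 4. The groups did not overlap, but lithium sample 1 was far above the other lithium samples. On the main probe set the log2 fold change of 0.74 ± 0.18 (SE) had an adjusted p of 0.0859 (limma). Each of the other 3 Phgdh probe sets also had all 4 lithium signals above the controls, with log2 fold changes of 0.78, 1.11 and 0.93 and adjusted p-values of 0.0287, 0.0726 and 0.0415. With the replicate block these became 0.0802, 0.156 and 0.0878. All 4 probe sets of this gene are of a kind that can also hybridise to other transcripts, by the suffix of their names. Phgdh passed the test when all its probe sets were averaged (log2 fold change 0.89, adjusted p = 0.0243).

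Psat1, the aminotransferase of the next step of serine synthesis, read 1980, 1574, 1413 and 1126 in lithium samples 1 to 4, against 1219, 1190, 1118 and 1122 in control samples 1 to 4. Lithium sample 4 fell inside the control range, while the other 3 were above it. Its log2 fold change was 0.36 ± 0.17 (SE) with a 95% interval of -0.03 to 0.75 and an adjusted p of 0.3197 (limma), and it was 0.23 without lithium sample 1. A further Psat1 probe set gave 0.24 on the log2 scale with an adjusted p of 0.262.

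**Figure D2:**
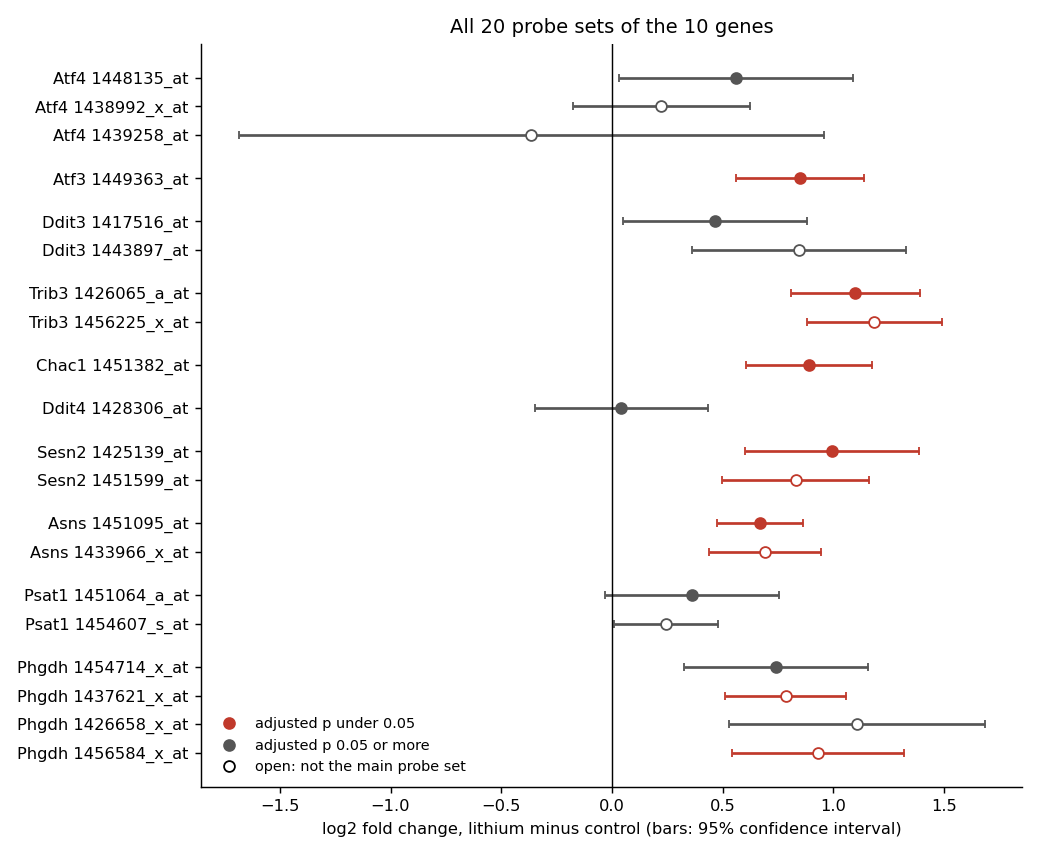
Log2 fold change, lithium minus control, of all 20 probe sets of the 10 genes (x axis), with bars for the 95% confidence interval, red for an adjusted p under 0.05, and filled symbols for the main probe set. The 10 red probe sets belong to Atf3, Trib3, Chac1, Sesn2, Asns and Phgdh, and 19 of the 20 points lie to the right of 0.

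Over all 20 probe sets of these genes, 10 rose, against 425 of 45037 probe sets on the array (0.944%). The lithium signals lay above all control signals in 13 of the 20, and 19 had a higher mean log2 signal in lithium, the exception being the dim Atf4 probe set. Over the main probe sets of all genes these shares were 6.47% and 47.3%, and they were not counted over all probe sets. Probe sets of 1 gene share its mRNA and are not independent. Ranked by fitted fold change among all genes, 1.34% of genes had a larger rise than Trib3, 1.87% than Sesn2, 2.62% than Chac1, 3.03% than Atf3, 4.17% than Phgdh, 5.15% than Asns, and 7.48% than Atf4. For Ddit3, Psat1 and Ddit4 these shares were 10.2%, 14.8% and 42.7%. The intervals of neighbours in this order overlapped.

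On their main probe sets, the 10 genes were not raised to the same degree in the 4 lithium samples. Lithium sample 1 had the highest signal of its group for 8 of the 10 genes, and lithium sample 2 for Atf3 and Chac1. Lithium sample 4 was lowest for 6 and lithium sample 3 for 4. On the log2 scale the 10 genes lay on average 0.95, 0.68, 0.53 and 0.50 above the control mean in lithium samples 1 to 4, and 10, 9, 9 and 7 of them were above every control sample. The share of all genes above every control sample was not counted for single lithium samples. Nor was the share of all genes highest or lowest in each of them, so these counts describe the 10 genes alone.

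The 5 genes that rose lay at least 0.60 above the control mean on the log2 scale in each lithium sample. On their main probe sets Atf4, Psat1 and Phgdh were raised unevenly. For Chac1 the distances above the control mean were 0.88, 0.94, 0.84 and 0.90 in lithium samples 1 to 4, and for Asns 0.72, 0.66, 0.69 and 0.60. For Atf4 they were 1.22, 0.52, 0.35 and 0.14, and for Psat1 0.77, 0.44, 0.28 and -0.04. The further Atf4 probe set ran otherwise, at 495, 441, 573 and 744 in lithium samples 1 to 4. Its log2 difference was 0.05 within samples 1 and 2 and 0.40 within samples 3 and 4. The dimmest Phgdh probe set was also highest in lithium sample 4, at 203, against 188 in lithium sample 1. The remaining Phgdh and Psat1 probe sets were highest in lithium sample 1. Within samples 1 and 2 all 10 genes were higher in lithium, with a median log2 difference of 0.87, and within samples 3 and 4 it was 9 of 10, with a median of 0.51. The exception was Ddit4, at -0.04. Of all 18193 genes, 7975 were higher within samples 1 and 2, with a median of -0.03. Within samples 3 and 4 it was 8966, with a median of 0.

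**Figure D3:**
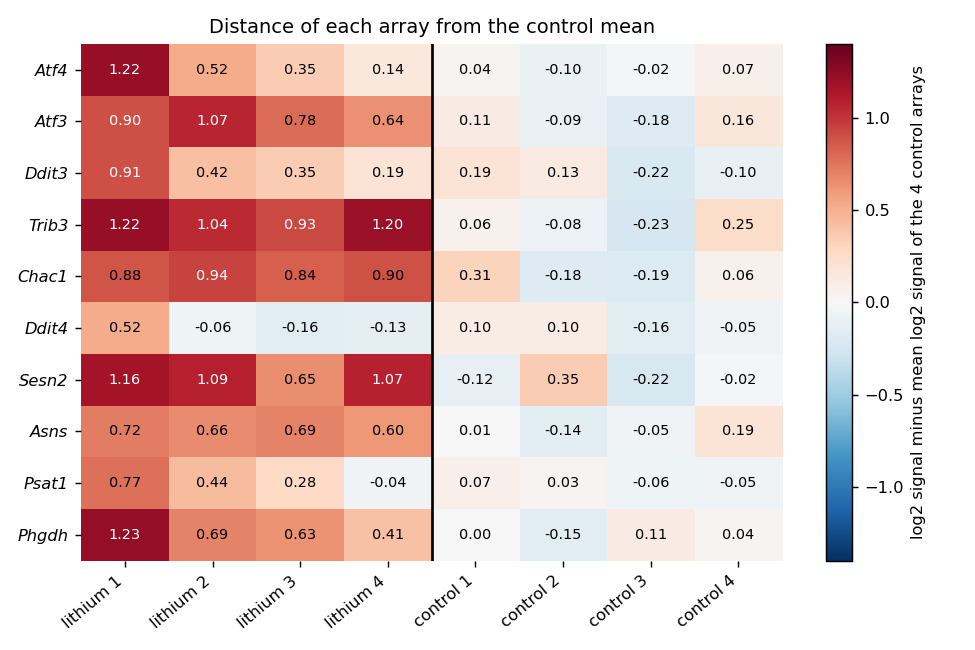
Log2 signal of the main probe set of each gene in each sample minus its mean log2 signal in the 4 control samples. The 4 lithium columns stand left of the 4 control columns, and the colour scale is in log2 units. Trib3, Chac1, Sesn2 and Asns are raised in every lithium column, while Atf4, Ddit3, Psat1 and Phgdh are highest in lithium sample 1 and lowest in lithium sample 4.

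Lithium sample 1 also stood apart in other measures. Its median signal over all probe sets was 12.3, against 15.2 to 16.5 in the other lithium samples and 14.8 to 17.5 in control samples, and its 3′ minus 5′ log2 difference of Gapdh, a measure of RNA integrity, was the highest at 0.53. The 3′ minus 5′ difference averaged 0.43 ± 0.07 in lithium and 0.37 ± 0.02 in control (SD, n = 4 each; exact permutation test, two-sided, p = 0.171). The 5061 brightest genes lay at a median of 0.09, 0.05, 0.00 and -0.01 from the control mean in lithium samples 1 to 4. Without lithium sample 1 the median log2 fold change of the 10 genes was 0.61, and 1 of the 10, Trib3, passed the test, where 0.401% of all genes rose. The part of RNA quality and of this sample in the sizes given above was not tested beyond these values.

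Signals of cell type markers moved as well. For dividing cells all 7 measured markers were lower in every lithium sample than in any control sample, and 3 of them passed the test, with summed signals of 68.2 to 247 in lithium and 845 to 2217 in control. The 7 fibroblast markers summed to 772 to 2226 in lithium and 3134 to 4957 in control, with 2 called lower, and the 6 endothelial markers to 144 to 319 in lithium and 389 to 622 in control, with 1 called lower. Of the cells that define the nerve, the 8 astrocyte markers summed to 5752 to 6991 in lithium and 6864 to 7234 in control, and the 7 measured oligodendrocyte markers to 10030 to 13310 in lithium and 9963 to 11050 in control, with 0 calls in either list. Of the astrocyte markers, 5 had a lower and 3 a higher mean log2 signal in lithium. Slc4a4 alone lay apart without overlap, at 358 ± 45.7 in lithium and 500 ± 35.2 in control (log2 fold change -0.49, adjusted p = 0.0768). Aldoc had the largest fall, at 278 ± 60.7 in lithium and 529 ± 149 in control (-0.91, adjusted p = 0.114). Markers of oligodendrocyte precursors (5, with 0 calls) summed to 1149 to 1428 in lithium and 1270 to 1615 in control, a sum in which 2 members lay apart in opposite directions, with no overlap between groups. Pdgfra averaged 208 ± 117 in lithium and 527 ± 83.5 in control (log2 fold change -1.52, adjusted p = 0.124), and Olig2 averaged 297 ± 77.2 in lithium and 171 ± 19.7 in control (0.77, adjusted p = 0.103). Those of microglia and macrophages (8, 1 lower) to 3747 to 4594 in lithium and 4231 to 5208 in control, and those of pericytes and smooth muscle (6, 1 lower) to 176 to 209 in lithium and 239 to 704 in control. With the replicate block 0 of the fibroblast, endothelial, microglial and pericyte markers passed the test, and of the dividing cell markers 2 did, Prc1 (adjusted p = 0.0487) and Bub1 (0.0477), while Aurkb (0.0666) and Birc5 (0.0753) did not. The 7 measured markers of retinal neurons summed to 31.9 to 58.6 in lithium and 22.4 to 49.3 in control. Of these, Pde6b, Crx and Nrl were no higher than the spots for bacterial poly-A transcripts in any sample, so they were not well above background. Sag, the brightest of the list, averaged 16.8 in lithium and 16.7 in control. In RNA from whole tissue, more or fewer cells of a type and more or less RNA per cell cannot be told apart, and the part of these shifts in the ATF4 response genes was not tested.

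Beyond the 10 genes, 101 of 108 genes in 9 lists around the pathway were measured, of which 6 rose and 2 fell. By the same rule 1.18% of all genes rose and 2.05% fell. With the replicate block 0 of the 101 passed the test, and the adjusted p with the block stands beside that of each gene named below. With the term for samples 1 and 2 against 3 and 4 instead, 14 rose and 4 fell. Of all 18193 genes, 545 (3%) rose and 1039 fell in that fit. The list with the highest share of genes without overlap was that of the cytosolic aminoacyl-tRNA synthetases, the enzymes that charge tRNAs with amino acids. Of 19 measured, 18 had a higher mean in lithium, 14 had an unadjusted p under 0.05 in that direction (9.38% of all genes), and 11 (57.9%) had all 4 lithium signals above all 4 control signals (6.47% of all genes). The median log2 fold change was 0.36, from -0.04 for Qars to 0.86. Only Lars and Eprs passed the test. Lars, the leucyl enzyme, averaged 642 ± 72.9 in lithium and 407 ± 28.5 in control (log2 fold change 0.65, adjusted p = 0.0315, with the block 0.0753). Eprs, which charges glutamate and proline tRNAs, averaged 675 ± 13.1 in lithium and 448 ± 63.4 in control (0.60, adjusted p = 0.0388, with the block 0.0846). The median of this list was 0.54 within samples 1 and 2 and 0.20 within samples 3 and 4.

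Genes that act on eIF2 itself, its kinases, phosphatase subunits and exchange factor, had 1 call among 13 measured and a median of 0.38. Eif2b5, the catalytic subunit of the exchange factor eIF2B, averaged 299.6 ± 22.6 in lithium and 213 ± 10.5 in control (log2 fold change 0.49, adjusted p = 0.0315, with the block 0.0648). Its adjusted p was 0.0947 when its probe sets were averaged before the fit and 0.164 with each array centred on its median. The call held in 1 of 8 fits that each left out 1 sample. Of the 8 bZIP partners and related factors, 2 were higher and 2 lower at an unadjusted p under 0.05 (9.38% and 12.6% of all genes). The median was -0.16, and 1 rose by the adjusted p. This was Atf5, a bZIP factor controlled like ATF4 through its translation, at 1160 ± 113 in lithium and 613 ± 103 in control (0.93, adjusted p = 0.0295, with the block 0.0836). The C/EBP genes of the list, named here after their values were seen, were mostly lower. Cebpd fell without overlap (-0.50, adjusted p = 0.0638, with the block 0.0826). Cebpa (-0.71, 0.116, with the block 0.0754) and Cebpb (-0.48, 0.645, with the block 0.467) had lower means. Cebpg had a higher mean (0.23, 0.484, with the block 0.147).

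Amino acid transporters had 1 call among 12 and a median of 0.29. Slc7a3, a carrier of cationic amino acids, averaged 69.2 ± 2.45 in lithium and 38.0 ± 5.98 in control (log2 fold change 0.88, adjusted p = 0.0201, with the block 0.0686). The 9 measured enzymes of serine, glycine and one-carbon metabolism beside Phgdh and Psat1 had 0 calls and a median of 0.11, with 2 at an unadjusted p under 0.05. The lowest adjusted p among them belonged to Psph, the phosphatase of the last step of serine synthesis, at 475 ± 138 in lithium and 250.4 ± 29.1 in control (0.89, adjusted p = 0.0823, with the block 0.0751). The 9 other enzymes of amino acid metabolism had 1 call in each direction. Cth, which makes cysteine from cystathionine, averaged 41.2 ± 9.01 in lithium and 16.6 ± 3.74 in control (1.31, adjusted p = 0.0428, with the block 0.0796). At this dim signal its log2 fold change was 0.80 with a pseudocount of 16 (adjusted p = 0.0233). The adjusted p was 0.0517 with quantile normalisation and 0.0537 with array weights, and the call held in 0 of 8 fits that each left out 1 sample. Oat, ornithine aminotransferase, averaged 209 ± 28.9 in lithium and 322 ± 17.2 in control (-0.63, adjusted p = 0.0406, with the block 0.0850).

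Not every list with a known tie to ATF4 had a positive median. The 11 other stress targets measured had 0 calls and a median of -0.13, with 0 higher and 3 lower at an unadjusted p under 0.05 (12.6% of all genes were lower by that limit). Klhl24 had the lowest adjusted p of them, at 296 ± 59.5 in lithium and 556 ± 114 in control (log2 fold change -0.91, adjusted p = 0.0721, with the block 0.130). The 6 paralogues of the ATF4 response genes had 1 call and a median of -0.15. Trib2, a paralogue of Trib3, fell to 93.6 ± 18.0 in lithium, against 194 ± 32.3 in control (-1.06, adjusted p = 0.0387, with the block 0.0550). This fall rested on its main probe set, since leaving out probe sets with suffixes for cross-hybridisation gave an adjusted p of 0.742. Ddit4l, a paralogue of Ddit4 named here after its values were seen, averaged 223 ± 107 in lithium and 85.6 ± 20.6 in control (1.28, adjusted p = 0.126, with the block 0.146), without overlap between the groups.

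The unfolded protein response has a further arm through ATF6 and XBP1, which raises chaperones and folding enzymes of the endoplasmic reticulum. Of its 14 genes 0 passed the test, 0 were higher and 1 was lower at an unadjusted p under 0.05, and the median was -0.07. Hsp90b1, an endoplasmic reticulum chaperone, had the lowest adjusted p, at 745 ± 161 in lithium and 969 ± 64.5 in control (log2 fold change -0.40, adjusted p = 0.270, with the block 0.315).

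**Figure D4:**
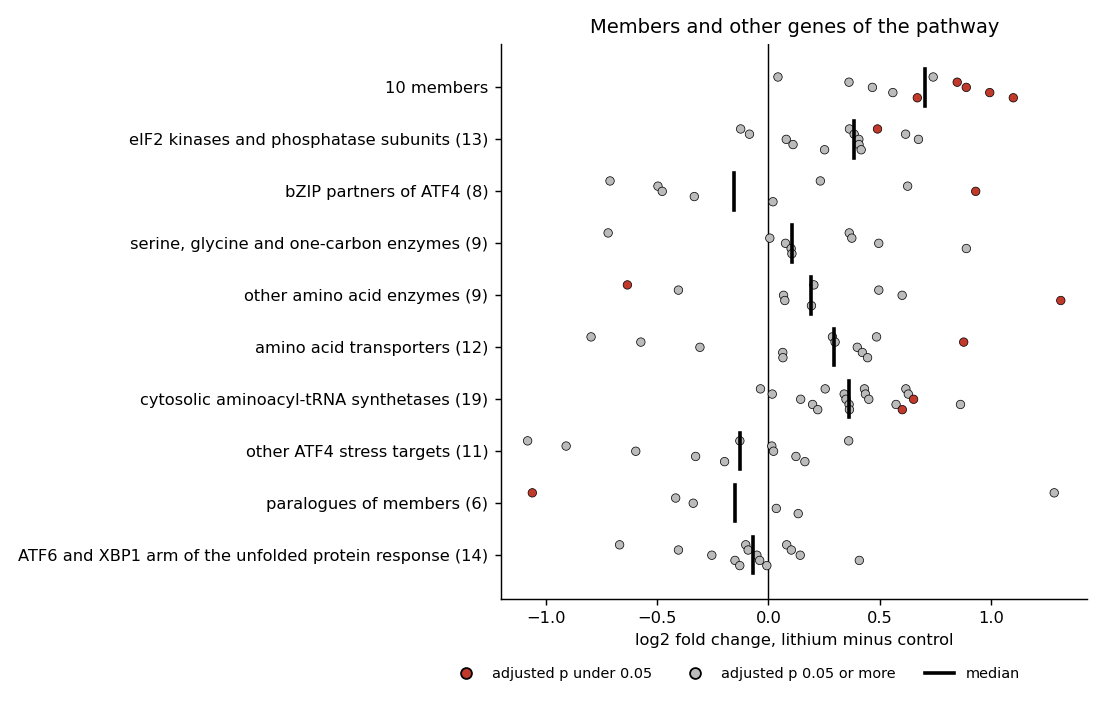
Log2 fold change, lithium minus control (x axis), of the main probe set of each measured gene, by list (rows, number of genes in brackets), with red points for an adjusted p under 0.05 and black bars for list medians. The 10 genes have a median of 0.70, the aminoacyl-tRNA synthetases 0.36 with 18 of 19 points right of 0, and the ATF6 and XBP1 arm -0.07.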

How the data were processed

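RNA of 4 lithium and 4 control optic nerve samples was hybridised to Affymetrix Mouse Genome 430 2.0 arrays, 1 array per sample. The authors deposited MAS5 signal intensities on a linear scale, made with GeneChip Operating Software and Agilent GeneSpring GX and scaled to an equal trimmed mean, with no log or baseline step. MAS5 subtracts mismatch probe signal, which leaves dim probe sets noisy. The labels give C57BL/6 mice and an RNeasy Mini kit, and the study's methods name another C57 substrain and the Micro kit. Arrays have no sequencing depth, and precision is set by their number.

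The file held 45101 probe sets, of which 64 Affymetrix controls were left out. Symbols came from the platform annotation, with 34958 probe sets of 1 symbol, 932 of several and 9211 of none. Of those with 1 symbol, 34754 matched RefSeq by Entrez identifier. Intensities were floored at 1 (14.5% of values), log2 transformed and fitted with limma 3.58.1 (lmFit, eBayes) in R 4.3.3, as in the study's moderated test, with Benjamini-Hochberg adjustment over 45037 probe sets. Calls needed an adjusted p under 0.05. The code was tested on simulated data. The genes, the lists around them, the marker lists and the promoter motifs were chosen with earlier results of these data known. From each list every gene past the test was named or, with none, that with the lowest adjusted p. Figures were drawn in Python 3.11.15 with matplotlib 3.10.9.

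Both groups carry the numbers 1 to 4 in the labels. Deviations of same-numbered samples from their group means correlated at 0.130 to 0.197 over probe sets, so the numbers were taken as pairs, a pairing that comes from the data and not from the labels. Different numbers within 1 and 2 or within 3 and 4 correlated at 0.112 on average, and across these at -0.136. The check thus set samples 1 and 2 apart from 3 and 4 more clearly than it set apart the single numbers. Alternatives were quantile normalisation, median centring, a pseudocount of 16, a signal minimum of 200, other choices of probe set, array weights, a variance model with trend and robust settings, the replicate block, a term for samples 1 and 2 against 3 and 4, and each sample left out in turn.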

Additional observations from a re-analysis of the deposited data

Results flagged for a closer look

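Of 20 groups of 4 samples, the main probe sets of the 10 genes in each condition, 1 held a sample that stood apart from the others by Dixon's test. This was Ddit4 in lithium, where lithium sample 1 read 2182 and the nearest other lithium sample 1466, a gap on the log2 scale of 0.852 of the group's range, past the 95% critical value for 4 samples. At this value chance alone singles out about 1 such group in 20.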

How the results depend on the processing

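Of the 10 genes, 5 rose in the main fit, 2 with median centring and 1 with the replicate block, and 1 to 3 when each sample was left out in turn. The count was 1 without lithium sample 1 or control sample 3. The other alternatives gave 5 to 7, and 0 of the 10 fell under any of them. The share of all genes that rose also moved with the setting. It was 1.18% in the main fit, 0.835% with median centring, 0.0495% with the replicate block and 0.187% to 0.605% with a sample left out. A pseudocount of 16 gave 2.01%, the signal minimum 3.74% of 5431 genes, and averaged probe sets 1.79%. The trended and robust variance gave 1.35%, and the term for samples 1 and 2 against 3 and 4 gave 3%. The remaining settings gave 1.14% to 1.58%. Of the 101 pathway genes, 6 rose in the main fit, against 3 with median centring, 10 with a pseudocount of 16, 15 with a signal minimum of 200, 11 with averaged probe sets, 11 with a trended and robust variance, 0 with the replicate block, 14 with the term for samples 1 and 2 against 3 and 4, and 0 to 2 with a sample left out. The 2 that fell became 1, 4, 4, 2, 3, 0 and 4 in the same order, 1 without the suffixed probe sets, and 0 to 0 with a sample left out. Over all genes 373 fell in the main fit, and 429, 632, 283, 462, 546, 63 and 1039 in that order. Without the suffixed probe sets 365 of all genes fell, and with a sample left out 60 to 238. Over all probe sets the block left 124 calls of 1050. The median log2 fold change of the 10 genes stayed between 0.61 and 0.79 over all alternatives. The log2 fold change of Ddit4 was -0.040 with quantile normalisation and -0.043 with array weights, and -0.12 to 0.11 with a sample left out, below 0 without lithium sample 1 or control sample 3. The signal minimum left no value for Sesn2, and all Phgdh probe sets carry a suffix. It also left out dim pathway genes, among them Cth, Slc7a3 and Trib2, so its pathway counts cover fewer than 101 genes. The cause of these shifts was not tested.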
